A study of Mus musculus with 13 samples.

Results

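The 10 genes described here encode Wnt ligands (Wnt4, Wnt5a, Wnt5b, Wnt6, Wnt7a, Wnt7b, Wnt9a, Wnt10a, Wnt10b and Wnt11), out of 54232 Ensembl gene IDs in the expression table. They were listed by name, with earlier results of these data known, so medians of the 10 beside all genes are descriptions. The other 9 of the 19 mouse Wnt ligand genes are given as a comparison list. RNA was sequenced in bulk from C57BL/6 mouse cells. Small molecules, which the labels do not name, were used to turn fibroblasts of the embryo into cells labelled as corneal endothelial-like. The corneal endothelium is the cell sheet that lines the back of the cornea and keeps it clear by moving fluid out. The starting group, D0, was mouse embryonic fibroblasts aged E13.5 (3 libraries). D7 (3 libraries) and D12 (2 libraries) were cells at day 7 and day 12, labelled as induced neural crest cells. P1 and P8 (2 libraries each) were labelled as induced corneal endothelial cells (ciCEC), and the labels do not say what P1 and P8 stand for. pCEC was 1 library of cells labelled as primary cells from the corneal endothelium, taken at postnatal day 30. All groups except pCEC came from embryonic fibroblasts. The labels do not tie replicates to separate cultures or animals. All p-values therefore rest on the spread among libraries, and that spread may be technical.

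Wnt proteins are secreted signals that carry a lipid added by the acyltransferase Porcn and that need the carrier Wls to leave the cell. They bind Frizzled receptors. With the co-receptors Lrp5 and Lrp6 this stabilises beta-catenin, which then acts with TCF/LEF factors on target genes, whereas binding with Ror2 and related receptors leads to beta-catenin-independent outputs such as planar cell polarity. Wnt5a and Wnt11 are best known for the second kind of output. Wnt signalling through beta-catenin takes part in the induction of the neural crest, the embryonic cell population from which the corneal endothelium arises.

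The identity of each line outside D0 was inferred, because the column of gene IDs follows the line order of the D0 libraries only. Genes were placed on the lines of the other groups by the order of a hash table and by the requirement that FPKM, gene length and library total give whole reads. All 10 ligands were placed in every group. In a check on D0, 13093 of 13127 genes at 1 FPKM or more were placed on the line that the ID column gives. Gene lengths had been checked or set on D0, and the D0 IDs also set the range of lines searched, so they were not fully hidden. Both favour that count. D0 also had more libraries to check whole reads against than D12, P1, P8 or pCEC. In pCEC, a single library, the whole-read condition was weak for 3 ligands. On the line given to Wnt5b, 97 candidate genes gave whole reads, and 25 did so on each of the lines given to Wnt6 and Wnt7a, so the order of lines decided those values. Some lines in other groups also had several candidates. There were 7 for Wnt10a and for Wnt11 in P1, and 5 for Wnt11 in D12 and for Wnt7a in P8. Line order chose among these too.

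The shallowest library, P1 replicate 2, had a recovered total of 9997865 reads, and the deepest, D0 replicate 2, had 24030674. Replicates were close in D0 and D7 (Spearman's rho across genes 0.993 to 0.996) and in D12 (0.99), further apart in P1 (0.908) and furthest in P8 (0.717). P8 replicate 2 had fibroblast and macrophage marker sums of 4186 and 944 FPKM, against 68.1 and 58.5 in P8 replicate 1. The summed level of 10 basal epithelial markers was 1.43 to 1.58 FPKM in D0, 16.5 to 22.4 in D7 and D12, and 8309 and 10800 in P1. It was 9360 FPKM in P8 replicate 1, 1.01 in P8 replicate 2 and 3517 in pCEC. Of 10 corneal endothelial markers, 6 reached 1 FPKM in pCEC, 9 or 10 in D0, D7 and D12, 8 and 9 in P1, and 6 and 8 in P8. They summed to 798 FPKM in pCEC, 470 to 558 in D0, D7 and D12, 845 and 723 in P1, and 1121 and 504 in P8. In bulk RNA, fewer cells of a type and less RNA per cell cannot be told apart.

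The genomic neighbourhood bears on how these genes are read. On GRCm38 with GENCODE M21 annotation, Wnt6 (ENSMUSG00000033227, chromosome 1 from 74771892 to 74785322) and Wnt10a (ENSMUSG00000026167, chromosome 1 from 74791516 to 74804179) lie 6194 bases apart on the plus strand. Also on the plus strand are Wnt5a (ENSMUSG00000021994, chromosome 14 from 28504750 to 28527448) and Wnt4 (ENSMUSG00000036856, chromosome 4 from 137277489 to 137299726). Wnt7b (ENSMUSG00000022382, chromosome 15 from 85535437 to 85582473) and Wnt7a (ENSMUSG00000030093, chromosome 6 from 91363981 to 91411363) are on the minus strand. Wnt5a, Wnt5b, Wnt6, Wnt7b and Wnt11 each overlap a gene on the opposite strand. The sources used here do not give the strand setting of the counting, so reads of such pairs may not have been told apart.

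RefSeq promoter windows of GRCm38.p6, covering 250 bases before a gene start, were matched by symbol for 7 of the 10 ligands, in 10 windows. Wnt5a, Wnt7b and Wnt10a had no entry. The windows were searched on both strands for CTTTGAT and CTTTGTT, letters of the TCF/LEF motif, and for TATAAA, letters of the TATA box. At least 1 of the first 2 words occurs in 8.1% of 32851 RefSeq windows of this length, and TATAAA in 12.4%. The window of the first Wnt11 start (plus strand, chr7:98834862-98835111) held CTTTGAT on the opposite strand and TATAAA. The window of the second Wnt11 start (chr7:98838595-98838844) held none of the words. The window of the third Wnt5b start (minus strand, chr6:119449387-119449636) held CTTTGAT. The windows with matches are shown because TCF/LEF factors are the endpoint of beta-catenin signalling, with the motif letters in capitals.
Wnt11: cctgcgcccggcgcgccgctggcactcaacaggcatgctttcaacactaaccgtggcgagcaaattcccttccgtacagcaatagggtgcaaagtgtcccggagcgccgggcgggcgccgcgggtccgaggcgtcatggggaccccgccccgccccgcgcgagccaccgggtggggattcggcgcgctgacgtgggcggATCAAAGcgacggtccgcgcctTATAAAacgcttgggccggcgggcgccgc
Wnt5b: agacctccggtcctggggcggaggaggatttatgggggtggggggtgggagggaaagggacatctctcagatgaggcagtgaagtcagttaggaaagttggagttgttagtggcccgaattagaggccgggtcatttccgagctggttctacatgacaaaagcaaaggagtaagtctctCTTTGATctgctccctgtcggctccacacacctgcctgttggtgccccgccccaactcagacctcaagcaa
The Wnt6 window (plus strand, chr1:74771642-74771891) is shown as an example of the CpG-rich kind, with each CG in capitals. It holds 28 CG pairs against a median of 6 over all RefSeq windows, and 92.4% of windows hold fewer.
Wnt6: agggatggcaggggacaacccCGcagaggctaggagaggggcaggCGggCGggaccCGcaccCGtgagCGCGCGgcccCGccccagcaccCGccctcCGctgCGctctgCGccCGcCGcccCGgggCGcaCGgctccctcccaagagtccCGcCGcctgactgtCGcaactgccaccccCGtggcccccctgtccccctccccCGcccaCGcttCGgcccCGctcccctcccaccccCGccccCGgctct
These matches describe letters in the windows only.

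The ligand make-up of the libraries changed in the course of the conversion. Wnt5a had the highest level of the 10 in every D0, D7 and D12 library, while Wnt7b had it in both P1 libraries, in P8 replicate 1 and in pCEC. The 10 ligands summed to 118, 124 and 126 FPKM in D0, to 538, 549 and 523 in D7 and to 537 and 480 in D12. The P1 sums were 213 and 263 FPKM, the P8 sums 167 and 134, and the pCEC sum 246. Wnt5a made up 78.9 to 82.5% of the sum in D0, 66.2 to 69.4% in D7 and 94.5% in P8 replicate 2. Wnt7b made up 38.1 and 38.5% in P1, 40.9% in P8 replicate 1 and 39.2% in pCEC. FPKM is scaled by gene length, here a mean over annotated transcripts and not the length of the transcript expressed. Levels and shares of different ligands can therefore be set beside each other only roughly.

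**Figure D1:**
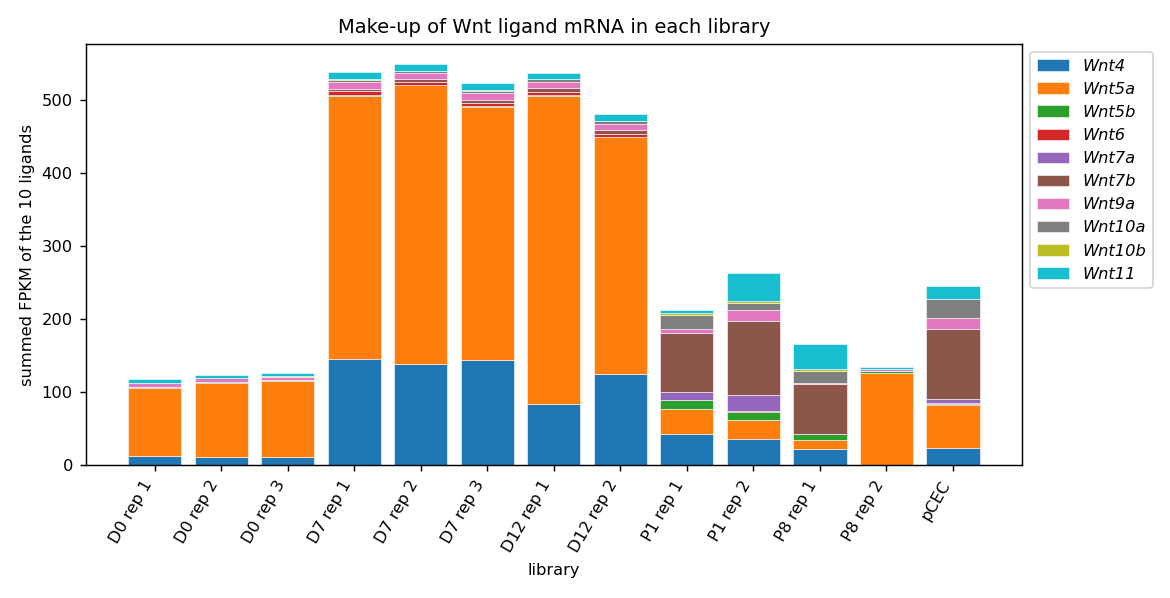
Summed FPKM of the 10 Wnt ligands (y axis, linear from 0) in each of the 13 libraries (x axis), with 1 colour per ligand. The Wnt5a segment dominates D0, D7, D12 and P8 replicate 2, and the Wnt7b segment is the largest in P1, P8 replicate 1 and pCEC.

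The order of the levels changed with it. In D0 the order was Wnt5a, Wnt4, then Wnt9a and Wnt11, whose libraries overlapped each other, then Wnt5b and Wnt10b. Wnt6, Wnt10a, Wnt7a and Wnt7b were at the bottom with 0 to 5 reads per library and overlapped. In D7 and D12 the order again began with Wnt5a and Wnt4, with Wnt11 and Wnt9a overlapping behind them. In P1 it began with Wnt7b and Wnt4. Each of Wnt5a, Wnt11, Wnt7a, Wnt10a and Wnt5b in P1 overlapped the ligand ranked after it, so their order was not resolved by the pair. At least 1 FPKM was reached by 5 ligands in each D0 library, 7 or 8 in each D7 library, 7 in each D12 library and 9 and 10 in P1.

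**Figure D2:**
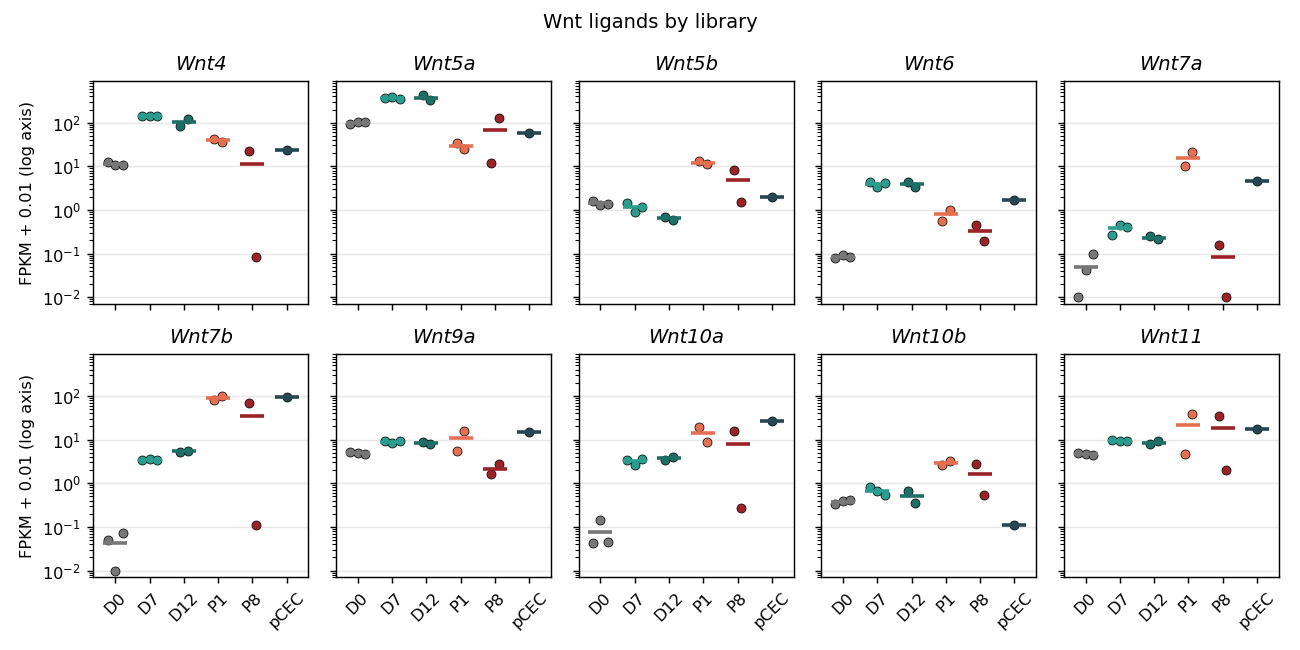
FPKM + 0.01 on a log axis (y) for each ligand (panels) by group (x), with 1 point per library and a horizontal line at the group mean. Every ligand except Wnt5b is higher in every D7 library than in every D0 library. The share of all genes so separated is not given. Wnt7b and Wnt7a are highest in P1 among the groups derived from fibroblasts, and the 2 P8 points lie far apart for Wnt4, Wnt7b and Wnt10a.

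The first comparison asked how the ligands differed between starting fibroblasts and day 7. Wnt4, Wnt5a, Wnt6, Wnt7b and Wnt10a rose, and no ligand fell. Fold changes are given on the scale of log2(FPKM + 1) with the standard error of limma, a linear model fitted to all 17161 genes tested, and understate the change of low genes. Calls needed a change of at least 2-fold and an adjusted p (Benjamini-Hochberg) under 0.05. Thus 5 of 10 ligands were called higher, where 25.3% of all genes were called in either direction, 12.5% higher and 12.8% lower. The median change of the 10 was 1.37 on the log2 scale, against -0.01 for all genes. Where groups are said not to overlap for a ligand, the share of all genes so separated is not given. Such statements describe the libraries only.

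Wnt4, which acts in the development of kidney tubules and the female reproductive tract, stood at 12.6, 10.9 and 10.9 FPKM in D0 and at 145, 139 and 145 in D7. The groups did not overlap, and the change was 3.53 ± 0.14 (limma, adjusted p = 5.55e-07). Wnt5a, a ligand of Ror2 that directs tissue outgrowth, stood at 92.9, 101.5 and 104 FPKM in D0 and at 360.5, 381 and 346 in D7. Every D7 library was above every D0 library, with a change of 1.86 ± 0.13 (limma, adjusted p = 1.09e-05). These were the 2 most abundant of the 10 in both groups.

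The other 3 rose from near nothing to a few FPKM. Wnt6, an ectodermal ligand that takes part in neural crest induction in the chick, stood at 0.0697, 0.0835 and 0.073 FPKM in D0, from 2 or 3 reads each. In D7 it was at 4.45, 3.39 and 4.09 FPKM, a change of 2.21 ± 0.14 (limma, adjusted p = 5.41e-06). Its neighbour Wnt10a, a ligand of tooth and skin appendage development, stood at 0.0336, 0.134 and 0.0352 FPKM in D0 and at 3.36, 2.57 and 3.51 in D7, with no overlap. Its change was 1.95 ± 0.24 (limma, adjusted p = 0.000257). Wnt7b, a ligand of lung, placenta and brain vessel development, stood at 0.0392, 0 and 0.0616 FPKM in D0, where a count of 0 allows up to 0.047 FPKM by counting error alone (3 reads). In D7 it was at 3.35, 3.66 and 3.40 FPKM, a change of 2.11 ± 0.10 (limma, adjusted p = 1.7e-06).

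The calls for Wnt7b and Wnt10a were lost in a fit over all 13 libraries, which includes the unlike P8 pair (limma, adjusted p = 0.182 and 0.0687). With a pseudocount of 5 the changes of Wnt6, Wnt7b and Wnt10a were 0.82, 0.75 and 0.68, under the 2-fold limit. With a pseudocount of 0.1 they were 4.53, 4.77 and 4.32, and with voom on the recovered reads 5.43, 6.90 and 5.39.

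Wnt9a, a ligand of joint formation, and Wnt11, which acts in kidney branching and cell movement, were higher in every D7 library than in every D0 library but were not called. Wnt9a stood at 5.25, 4.98 and 4.67 FPKM in D0 and at 9.21, 8.18 and 9.47 in D7 (0.74 ± 0.31, limma, adjusted p = 0.0708). Wnt11 stood at 4.98, 4.73 and 4.45 FPKM in D0 and at 9.95, 9.11 and 9.51 in D7 (0.88 ± 0.58, limma, adjusted p = 0.233). Both changes were under the 2-fold limit. The standard errors and p-values of the main fit rest on a spread shared over D0, D7, D12 and P1. Within P1, Wnt9a stood at 5.36 and 16.0 FPKM and Wnt11 at 4.58 and 37.6, so they do not measure the spread within D0 and D7 alone. In a fit over D0 and D7 alone the adjusted p was 0.00031 for Wnt9a and 6.3e-05 for Wnt11 by limma, with the same changes.

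Wnt5b, Wnt7a and Wnt10b were low and were not called either. Wnt5b stood at 1.58, 1.30 and 1.38 FPKM in D0 and at 1.44, 0.898 and 1.15 in D7, with overlap. Wnt10b stood at 0.33, 0.373 and 0.403 FPKM in D0 and at 0.815, 0.656 and 0.523 in D7, with no overlap. Wnt7a had 0 to 2 reads per library in D0 and 6 to 11 in D7, or 0.255, 0.454 and 0.395 FPKM there. It was called higher with a pseudocount of 0.1 (1.76 on the log2 scale, limma, adjusted p = 0.00374).

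Markers of the labelled cell types moved over the same step. The summed level of 11 neural crest markers was 149 to 167 FPKM in D0 and 1178 to 1230 in D7. The number of them at 1 FPKM or more was 8 in each D0 library and 7 or 8 in each D7 library. Foxd3, a defining neural crest factor, was listed at 0 in all 3 D7 libraries, as it already was in D0 replicates 1 and 2. The summed level of 10 macrophage markers was 1216 to 1296 FPKM in D0 and 8.57 to 13.2 in D7, and of 9 fibroblast markers 22290 to 23210 and 3392 to 3414. Their part in the ligand changes was not tested.

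From day 7 to day 12 the ligand levels stayed near each other and none was called by limma, where 0.845% of all genes were, 0.455% higher and 0.39% lower. At an unadjusted p under 0.05 by limma there were 3 ligands, Wnt4, Wnt5b and Wnt7b. The share of all genes at that looser threshold is not given, so nothing is read from that count. With voom on the recovered reads, 0 ligands were called. Wnt5a stood at 421 and 324 FPKM in D12, on both sides of the D7 libraries. Wnt4 stood at 84.3 and 124.5 FPKM in D12, below all 3 D7 libraries (-0.48 ± 0.16, limma, adjusted p = 0.224). Wnt7b stood at 5.28 and 5.57 FPKM, above all 3 D7 libraries (0.52 ± 0.12, limma, adjusted p = 0.0658). Wnt5b stood at 0.688 and 0.569 FPKM, below all 3 D7 libraries (-0.40 ± 0.13, limma, adjusted p = 0.222). The median change of the 10 was -0.11, against -0.01 for all genes.

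The step from day 12 to P1 ciCEC exchanged the leading ligands. Wnt5b, Wnt7a, Wnt7b, Wnt10a and Wnt10b rose, and Wnt4, Wnt5a and Wnt6 fell. Thus 8 of 10 were called, in a comparison that called 32.9% of all genes, 17.7% higher and 15.2% lower. The median change was 1.00 on the log2 scale, against 0.11 for all genes. The standard errors and p-values use the spread shared over D0, D7, D12 and P1. The P1 pair was further apart (Spearman's rho 0.908) than the libraries of D0 and D7 (0.993 to 0.996). The shared spread may therefore be too small for P1. The fit over all 13 libraries called 5 of the 10 ligands.

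Cell type markers moved over the same step. The 10 basal epithelial markers summed to 22.4 and 16.5 FPKM in D12, with 1 of 10 at 1 FPKM or more, and to 8309 and 10800 in P1, with all 10. The 11 neural crest markers summed to 1275 and 1387 FPKM in D12 and to 150 and 151 in P1, with 8 of 11 at 1 FPKM or more in all 4 libraries and Foxd3 listed at 0 in each. The 9 fibroblast markers summed to 2140 and 1963 FPKM in D12 and to 475 and 1120 in P1. The part of these cell types in the ligand changes was not tested.

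Wnt7b rose from 5.28 and 5.57 FPKM in D12 to 81.3 and 101 in P1. The pairs were far apart, with a change of 3.84 ± 0.13 (limma, adjusted p = 1.8e-07). Wnt7a, which in human limbal stem cells acts with Frizzled and PAX6 in corneal epithelial fate, stood at 0.237 and 0.204 FPKM in D12 and at 10.1 and 21.6 in P1. Its change was 3.70 ± 0.28 (limma, adjusted p = 1.38e-05). Both P1 libraries were far above both D12 libraries, with replicate 2 the higher of the pair.

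Wnt5b, which acts in cartilage and fat cell development, stood at 0.688 and 0.569 FPKM in D12 and at 12.9 and 11.5 in P1, a close pair (3.02 ± 0.15, limma, adjusted p = 1.14e-06). Wnt10a stood at 3.45 and 4.09 FPKM in D12 and at 19.4 and 9.02 in P1 (1.59 ± 0.30, limma, adjusted p = 0.00222). Wnt10b, which holds back fat cell formation and favours bone, stood at 0.659 and 0.338 FPKM in D12 and at 2.55 and 3.22 in P1 (1.38 ± 0.15, limma, adjusted p = 9.47e-05). For all 3 both P1 libraries were above both D12 libraries, and the share of all genes so separated is not given.

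Wnt5a fell from 421 and 324 FPKM in D12 to 33.5 and 25.2 in P1, a change of -3.62 ± 0.16 (limma, adjusted p = 6.7e-07). It was then also below every D0 library. Wnt4 fell from 84.3 and 124.5 FPKM to 42.9 and 36.4 (-1.35 ± 0.17, limma, adjusted p = 0.000276). Wnt6 fell from 4.34 and 3.43 FPKM to 0.562 and 1.00 (-1.46 ± 0.17, limma, adjusted p = 0.000143). No D12 library overlapped a P1 library for these 3, and the share of all genes so separated is not given. With a pseudocount of 5, the changes of Wnt6 (-0.62) and Wnt10b (0.52) were under the 2-fold limit. With a pseudocount of 0.1 they were -2.21 and 2.36.

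In the fit over all 13 libraries, Wnt4, Wnt7b and Wnt10a were not called (limma, adjusted p = 0.335, 0.058 and 0.198). In a fit over D12 and P1 alone Wnt10a was not called (limma, adjusted p = 0.0882).

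The P1 pair did not agree on Wnt9a and Wnt11. Wnt11 stood at 7.93 and 9.12 FPKM in D12 and at 4.58 in P1 replicate 1 and 37.6 in P1 replicate 2, on both sides of D12. Wnt9a stood at 8.86 and 7.93 FPKM in D12 and at 5.36 and 16.0 in P1. The change of Wnt11 against D12 was 2.02 without P1 replicate 1 and -0.77 without P1 replicate 2. Each of these rests on 1 P1 library. Wnt9a turned likewise, to -0.56 without P1 replicate 2. P1 replicate 2 was the shallower of the pair by a wide margin.

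**Figure D3:**
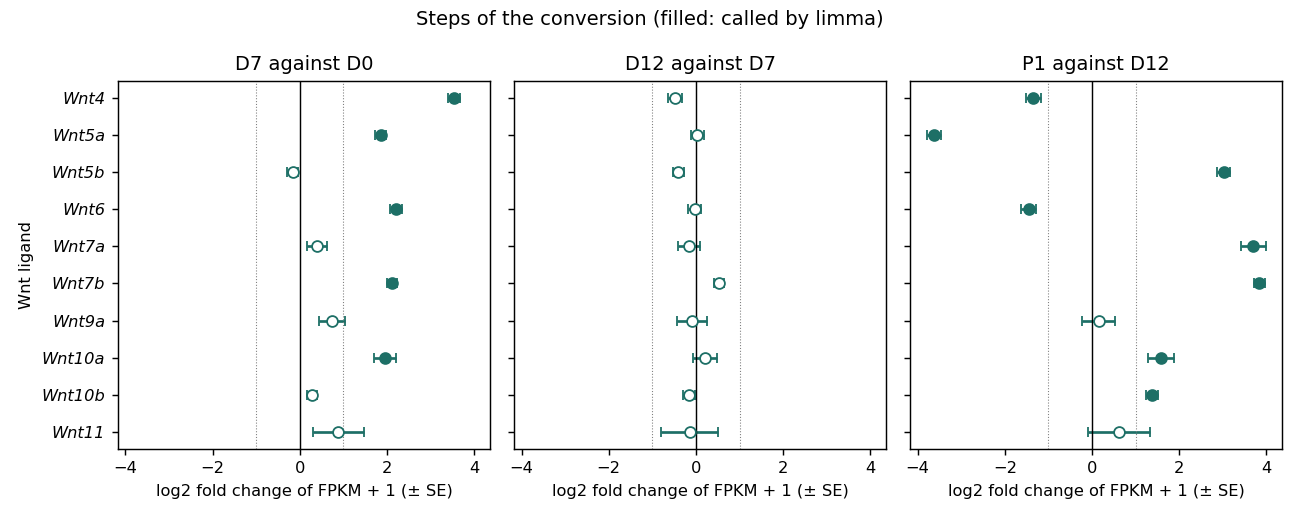
Log2 fold change of FPKM + 1 with its standard error from limma (x) for each ligand (y) over 3 steps (panels). Filled points were called, and dotted lines mark a 2-fold change. Wnt4, Wnt5a and Wnt6 lie to the right at D7 and to the left at P1, Wnt7b and Wnt10a lie to the right at both, and all D12 points are open.

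Against the starting fibroblasts, P1 had 6 ligands called higher (Wnt4, Wnt5b, Wnt7a, Wnt7b, Wnt10a and Wnt10b) and Wnt5a lower. Of all genes 24.8% were called in this comparison, 13.4% higher and 11.4% lower. The median change of the 10 was 1.60, against 0.04 for all genes. The comparison shares its D0 and P1 libraries with those above. The basal epithelial markers summed to 1.43 to 1.58 FPKM in D0 and to 8309 and 10800 in P1, and their part was not tested. Wnt7b had the largest change of the 10, 6.47 ± 0.12 (limma, adjusted p = 8.26e-09). The changes of Wnt4 (1.71) and Wnt5a (-1.74) were not called in the fit over all 13 libraries (limma, adjusted p = 0.216 and 0.106). Wnt6 stayed above D0 in both P1 libraries, with a change of 0.72 ± 0.15 that was under the 2-fold limit (limma, adjusted p = 0.00506). It passed that limit with a pseudocount of 0.1 (2.29).

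The 2 libraries labelled P8 did not behave as a pair for the ligands. P8 replicate 1 had Wnt7b at 68.0 FPKM, Wnt11 at 35.3, Wnt4 at 22.5, Wnt10a at 15.6, Wnt5a at 11.8 and Wnt5b at 8.36. P8 replicate 2 had Wnt5a at 127 FPKM and no other ligand above the 2.71 of Wnt9a, with Wnt4 at 0.0754 and Wnt7b at 0.102. Its Wnt5a level was above every D0 library, and its Wnt4 level, from 7 reads, was far below the D0 level of about 11. Across genes, its Spearman correlation was 0.896 or 0.897 with the D0 libraries and 0.861 and 0.838 with the P1 libraries, with which P8 replicate 1 reached 0.897 and 0.862.

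In the comparison of P8 with P1, fitted over all 13 libraries, Wnt7a alone was called lower, where 1.54% of all genes were called, 0.478% higher and 1.07% lower. Wnt7a stood at 0.145 FPKM (3 reads) in P8 replicate 1 and at 0 in P8 replicate 2, where 3 reads would be 0.108 FPKM, against 10.1 and 21.6 in P1. The change was -3.89 ± 0.28 (limma, adjusted p = 0.000136). It was low in both P8 libraries, unlike Wnt7b and Wnt10a, which were high in one and low in the other. The number of ligands called was 0 in a fit over P1 and P8 alone, in which the change of Wnt7a had an adjusted p of 1 by limma. Without 1 of the P8 libraries, the other was assumed to vary like the libraries of the other groups. Calls over all genes rose in such fits as well, so their ligand counts are not read as a result about the ligands. Wnt9a was lower in both P8 libraries (1.59 and 2.71 FPKM) than in both P1 libraries (-1.75 ± 0.39, limma, adjusted p = 0.0607). It was called on leaving out any 1 of these 4 libraries, which makes the same assumption for the lone library of a pair. The basal epithelial markers summed to 9360 FPKM in P8 replicate 1 and 1.01 in P8 replicate 2, and their part in the ligand values was not tested. The median change of the 10 was -1.55, against -0.06 for all genes.

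The primary cells had 1 library, so their values were not tested. Wnt7b led at 96.3 FPKM, followed by Wnt5a at 58.0, Wnt10a at 26.6, Wnt4 at 24.1, Wnt11 at 17.5 and Wnt9a at 14.9. Wnt7a stood at 4.66 FPKM, Wnt5b at 1.93, Wnt6 at 1.65 and Wnt10b at 0.102. Wnt7b in pCEC lay between the 2 P1 libraries, and Wnt10a was above both.

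Against D0, 7 ligands in pCEC (Wnt4, Wnt6, Wnt7a, Wnt7b, Wnt9a, Wnt10a and Wnt11) were past 2-fold, all higher, where 33% of all genes were past 2-fold, 18.2% higher and 14.8% lower. Against P1, Wnt5b, Wnt7a and Wnt10b were past 2-fold, all lower, where 13.4% of all genes were past it, 5.98% higher and 7.44% lower. The differences were -2.17, -1.49 and -1.81 on the log2 scale. Those of Wnt5b and Wnt7a rest on the placements described as weak, and that of Wnt10b rests on 4 reads in pCEC. The median differences of the 10 were 1.36 against D0 and 0.21 against P1, beside 0.05 and 0 for all genes. In pCEC, 4 corneal epithelial markers summed to 2156 FPKM, against 252 and 370 in P1. The number of them at 1 FPKM or more was 3 in pCEC, 3 in each D12 library and 2 in each P1 library. In D0, 1 of the 4 reached it, and they summed to 96.1 to 105 FPKM. The part of epithelial cells in the ligand levels of pCEC was not tested.

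**Figure D4:**
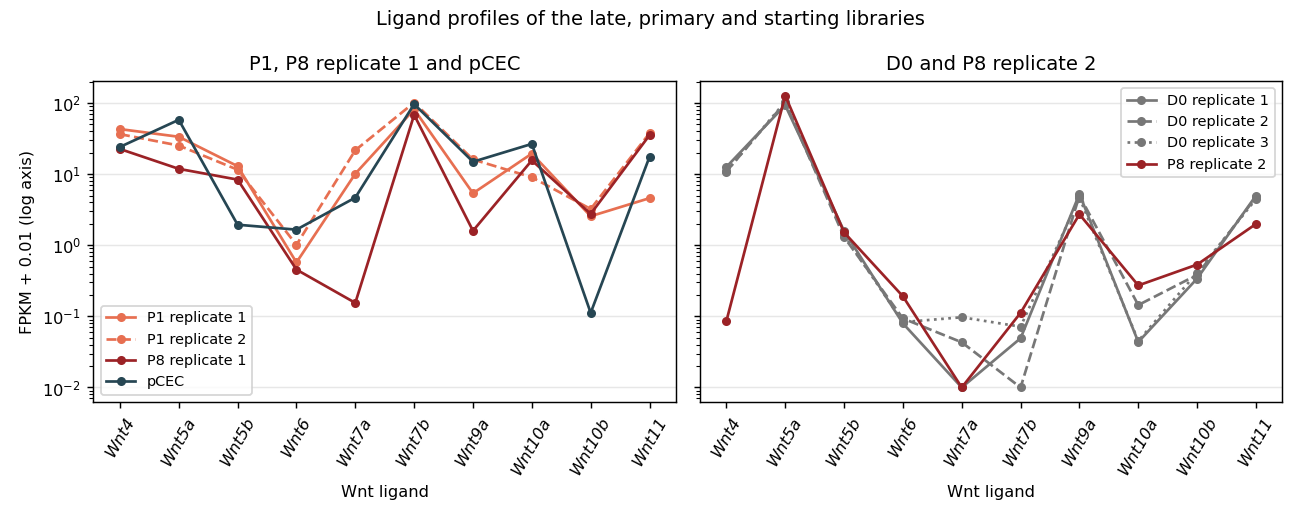
FPKM + 0.01 on a log axis (y) of the 10 ligands (x), with 1 line per library. Left, P1 replicates 1 and 2, P8 replicate 1 and pCEC all peak at Wnt7b, with 68.0 to 101 FPKM. Right, P8 replicate 2 and the 3 D0 libraries peak at Wnt5a, with 92.9 to 127 FPKM, and differ most at Wnt4.

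Across the 13 libraries some ligands had like patterns. The Pearson correlation of log2(FPKM + 1) was 0.964 for Wnt7b with Wnt10a, 0.901 for Wnt5b with Wnt10b and 0.831 for Wnt4 with Wnt6. It was -0.859 for Wnt5a with Wnt5b. The points share libraries and groups, so these are descriptions. Wnt6 and Wnt10a, the chromosomal neighbours, had r = 0.319. For the 4 of these 10 ligands with the highest group means, counting pCEC as a group of 1 library, the genes most like each were Gna11, Osbpl6 and Isca1 for Wnt5a (0.983 each) and Htra1, Tgfb2 and Phlda3 for Wnt4 (0.957 to 0.970). For Wnt7b they were Ltf, Vsnl1 and Ezr (0.991 to 0.993), and for Wnt10a Baiap2, Jag2 and Ppp2r2c (0.986 to 0.989).

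The other 9 Wnt ligands were mostly low, and 4 were tested. Wnt2 rose from 0.994, 1.13 and 0.678 FPKM in D0 to 16.4, 16.0 and 15.4 in D7 (3.14 ± 0.17, limma, adjusted p = 2.7e-06) and fell to 0 and 0.532 in P1. Wnt2b rose from 11.0, 11.96 and 14.0 FPKM to 27.5, 27.6 and 24.9 (1.06 ± 0.18) and fell to 0.593 and 0.995 in P1 (-4.18 ± 0.22, limma, adjusted p = 1.8e-06). Like Wnt4 and Wnt5a, both were higher in D7 than in D0 and lower in P1 than in D12. Wnt16 stood at 60.4 FPKM in P1 replicate 1 and 2.40 in P1 replicate 2 and was not called. Wnt3 reached 2.49 FPKM in P1 replicate 1 alone and was not called. Wnt1, Wnt3a, Wnt8a and Wnt9b were under 1 FPKM in every library, and Wnt8b was not resolved in every group.

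Of the 2 genes for ligand release, Wls fell at D7 and Porcn rose at P1. Wls went from 228, 241 and 241 FPKM in D0 to 108, 113 and 106 in D7 (-1.11 ± 0.17, limma, adjusted p = 0.00087). Porcn was not called at that step (0.54 ± 0.32, limma, adjusted p = 0.19) and rose at P1, where it stood at 6.78 and 19.9 FPKM against 3.22 and 4.19 in D12 (1.45 ± 0.39, limma, adjusted p = 0.013).

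The counts of the lists below are read against all genes, of which 12.5% were higher and 12.8% lower at D7, and 17.7% and 15.2% at P1 against D12. The median changes of all genes were -0.01 and 0.11. Among 16 receptor and co-receptor genes, 14 were tested at D7, with 2 higher and 3 lower, shares near those of all genes. Fzd1 (1.82) and Fzd10 (1.49) rose, and Fzd2 (-2.17) and the co-receptor Lrp6 (-1.30) had the largest falls. At P1 against D12, 1 was higher (Lrp6, 1.09) and 3 were lower. Ror2, the receptor through which Wnt5a signals without beta-catenin, fell from 23.7 and 22.1 FPKM in D12 to 0.875 and 3.51 in P1 (-3.04 ± 0.33, limma, adjusted p = 0.00011). Fzd3 also fell (-1.55). Ryk was set aside because it was listed at 0 in P8 only, with at least 1 FPKM in every other group.

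R-spondins are secreted proteins that strengthen Wnt signalling through Lgr receptors. Of 7 R-spondin and Lgr genes tested at D7, 3 were higher and 3 lower, where 25.3% of all genes were called. Rspo4 rose from 0.11, 0.0526 and 0.0921 FPKM to 65.8, 68.0 and 65.8 (5.96 ± 0.28, limma, adjusted p = 1.3e-06) and Lgr6 rose (2.35), while Lgr5 (-1.75) and Rspo2 (-1.49) fell. At P1 against D12, Lgr4 rose from 8.45 and 6.68 FPKM to 68.0 and 53.1 (2.84 ± 0.15, limma, adjusted p = 1.6e-06), and 4 genes fell, among them Rspo4 (-4.99) and Rspo1 (-2.83).

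Extracellular antagonists, which bind or inactivate ligands or their receptors, had 8 higher and 0 lower of 12 tested at D7, where 12.5% and 12.8% of all genes were. Their median change was 1.48 on the log2 scale, against -0.01 for all genes. Notum, which removes the lipid from Wnt proteins, rose from 0, 0.104 and 0.205 FPKM to 175, 171.5 and 191 (7.35 ± 0.16, limma, adjusted p = 3.7e-08). Wif1, a secreted protein that binds Wnts, stood at 0, 0.0418 and 0.0549 FPKM in D0 and at 49.6, 52.0 and 49.6 in D7 (5.64 ± 0.13, limma, adjusted p = 4.6e-08). At P1 against D12, 6 of the 12 fell, with Notum (-6.40) and Apcdd1 (-5.17) the largest, and 0 rose, where 15.2% of all genes fell. Sfrp2, an abundant antagonist at 93.3 to 101 FPKM in D7, was set aside because it was listed at 0 in pCEC only among the groups.

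Of 11 genes that beta-catenin signalling is known to induce, 8 were higher and 1 was lower at D7, and 1 was higher and 8 were lower at P1 against D12. Of all genes 25.3% and 32.9% were called in these comparisons. The list shares Notum and Apcdd1 with the antagonists, Lgr5 with the R-spondin list, and Lef1 and Tcf7 with the pathway core. Its medians were 3.81 and -3.09, against 1.37 and 1.00 for the 10 ligands and -0.01 and 0.11 for all genes. Nkd1, a feedback inhibitor, had the third largest rise at D7 after Notum and Apcdd1 (4.66 ± 0.20) and fell at P1 (-5.75 ± 0.24, limma, adjusted p = 5.6e-07). Rnf43, a ligase that removes Frizzled receptors, was the 1 gene that rose at P1, from 1.17 and 1.40 FPKM to 13.9 and 10.1 (2.50 ± 0.17, limma, adjusted p = 6.9e-06).

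The pathway core, 17 genes, had 2 higher and 3 lower at D7 and 3 higher and 2 lower at P1 against D12. These counts are near the shares of all genes, so nothing is read from them about the list. The factors Lef1 (3.81) and Tcf7 (2.41) rose at D7, and Bcl9l (-1.92) and Tcf7l1 (-1.57) had the largest falls. At P1, Bcl9l (2.16) and Ctnnb1, the gene of beta-catenin itself (1.46), rose, and Lef1 (-3.28) and Tcf7 (-1.72) fell. Of 8 planar cell polarity genes, 7 were tested, with 4 higher and 2 lower at P1 against D12, where 17.7% and 15.2% of all genes were. The cadherins Celsr2 (4.94 ± 0.36) and Celsr1 (4.34 ± 0.14) rose there, and Prickle1 (-2.60) and Prickle2 (-1.59) fell. At D7, Prickle1 (1.72) and Vangl1 (1.61) rose, and Daam1 (-1.26) and Vangl2 (-1.18) fell.

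**Figure D5:**
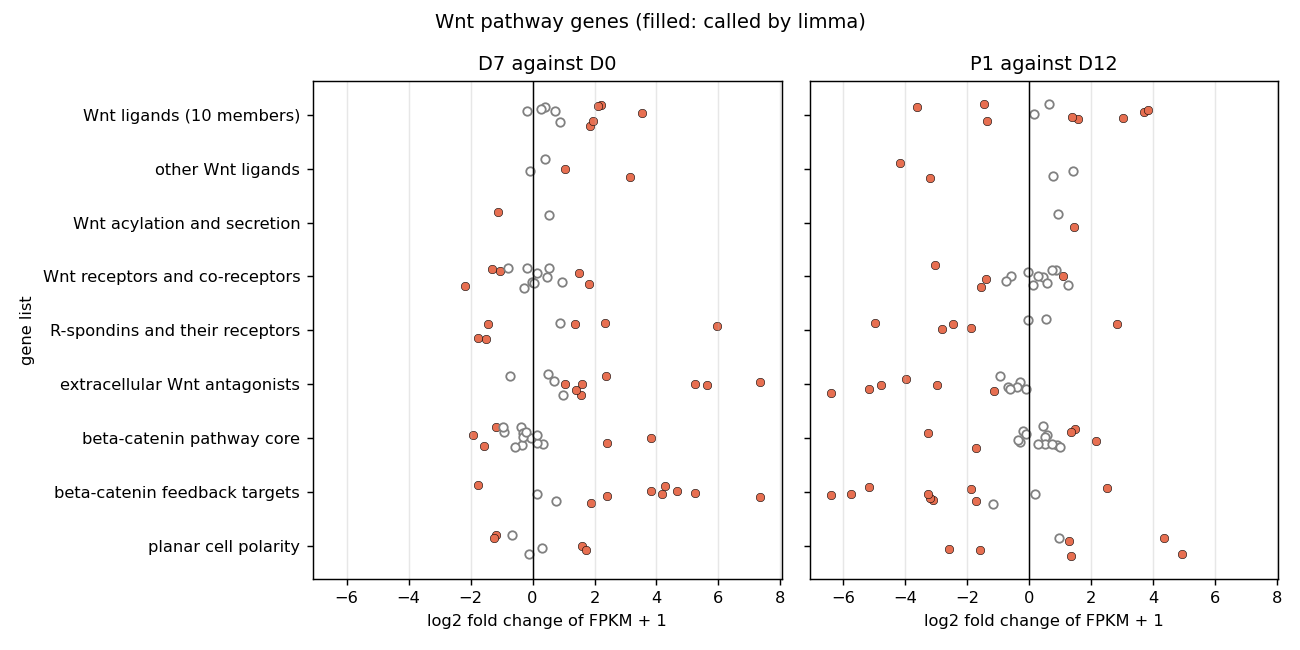
Log2 fold change of FPKM + 1 (x) of each tested gene of the Wnt pathway lists (y) for D7 against D0 and P1 against D12. Filled points were called by limma, and vertical jitter has no meaning. Points of the antagonists and feedback targets lie mostly to the right at D7 and to the left at P1, while the ligands lie on both sides at P1.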

How the data were processed

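RNA was extracted with Trizol and sequenced from TruSeq libraries, per the labels' protocols. The authors deposited FPKM values, that is, fragments divided by transcript length and library size. Genome builds mm8 and mm10 and Bowtie 0.12.2 are named, with no role, per the submitters' processing notes. All 13 value columns were used and 0 were not. Gene IDs fit the D0 columns only, so lines of other groups were placed by hash table slot order (131072 slots) and whole reads within 0.001, with mean transcript lengths of GENCODE M21. Genes unresolved in a group (6691) and genes listed at 0 in 1 group but at 1 FPKM or more in all others (220) were left out.

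Genes with at least 1 library at 1 FPKM (17161) were tested with limma 3.58.1 (R 4.3.3, eBayes with trend) after log2(FPKM + 1) transformation, over the 10 libraries of D0, D7, D12 and P1 (6 residual degrees of freedom) or, for P8 against P1, over all 13 (7). The smaller fit was chosen with the P8 pair known to be unlike. The fit was tested on simulated data. The members, lists and tests were chosen with earlier results of these data known. All 10 ligands are named, and from each list at most the 2 largest called rises and falls per comparison, with the other ligands and the secretion pair in full. Genes named otherwise (Ryk, Sfrp2, Foxd3) were chosen after their values were seen. Alternatives were other pseudocounts, filters, scaling, sample sets, voom, a replicate block and leaving out each replicate. Figures were drawn with matplotlib 3.10.9.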

Additional observations from a re-analysis of the deposited data

How the results depend on the processing

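Of the calls on ligands, those at D7 against D0 numbered 2 instead of 5 with a pseudocount of 5 and 3 in the fit over all 13 libraries, and those at P1 against D12 numbered 5 instead of 8 in that fit. At P8 against P1 the fit over those 2 groups called 0 instead of 1. Leaving out each replicate gave 5 to 5 ligands at D7 against D0, 0 to 0 at D12 against D7, 8 to 9 at P1 against D12, 7 to 9 at P1 against D0 and 2 to 8 at P8 against P1. Where this leaves 1 library in D12, P1 or P8, that library is assumed to vary like the other groups. With the replicate number as a block, the counts were 5, 0, 8, 7 and 1, as without it. The numbers were not taken to pair the samples, since the correlation of same-numbered deviations ranged from -0.233 to 0.177. Changes of sign on leaving out a replicate are given as the lowest and highest log2 value. At D12 against D7 they were -0.16 (without D12 replicate 1) to 0.11 (without D12 replicate 2) for Wnt6 and -0.16 to 0.22, likewise, for Wnt5a. Wnt6 was also at 0.04 without D7 replicate 1 and Wnt5a at -0.0046 without D7 replicate 3. At P1 against D12 they were -0.56 to 0.86 for Wnt9a and -0.77 to 2.02 for Wnt11, and at P1 against D0 -0.035 to 2.75 for Wnt11, each without P1 replicate 2 and replicate 1. Wnt9a at P1 against D12 was at -0.018 with voom. At P8 against P1 they were -2.30 (without P8 replicate 1) to 1.30 (without P8 replicate 2) for Wnt11, -1.23 (without replicate 2) to 2.09 for Wnt5a and -3.50 to 0.21 (without replicate 2) for Wnt10a. Wnt11 was also at 0.90 there without P1 replicate 2. The causes were not tested. Counts over all genes moved by more than 1.5 times with a pseudocount of 5 (D7 against D0 4345 to 2279, D12 against D7 145 to 62, P1 against D12 5647 to 3366, P1 against D0 4262 to 2504, P8 against P1 265 to 137). They also moved in the fit over all 13 libraries (D12 against D7, 79), in the fit over 2 groups (P1 against D12 3573, P8 against P1 0), with the block (P8 against P1, 133) and on leaving out a P1 or P8 library (P8 against P1, 675 to 3833). Depth limits Wnt6, Wnt7a, Wnt7b and Wnt10a in D0, where each library held 0 to 5 reads of them.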
